A study of Lymantria dispar dispar and Lymantria dispar asiatica with 30 samples.

Results

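The transcripts of 19654 gene models of the spongy moth (Lymantria dispar) were measured in female pupae. Of these, 150 were taken here because their mean values, on the variance-stabilised scale of the authors, stood furthest above the other days on day 3 after pupation. For each gene the values of the 6 pupae of a day were averaged, both strains together, and the 150 genes with the largest day 3 mean minus the highest of the other 4 day means were kept. The values that chose them are the same day means, so the course of these genes over days is described below without a test. A gene that is high on day 3 in a single strain can enter the list through that strain, so strain differences on day 3 and in the height of the peak are also given as descriptions. Adjusted p-values printed for these differences only describe their size against the spread between pupae. A difference that did not pass does not show equal levels. Strain differences on the other days were tested.

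The study compared Asian (ASM) and European (ESM) spongy moths, whose females differ in their ability to fly, and sampled pupae because flight structures form at this stage. Days 1, 3, 5, 8 and 11 of the pupal stage were sampled with 3 female pupae per strain and day, and each of the 30 libraries holds polyadenylated RNA of 1 whole pupa. All ASM pupae came from the RM laboratory colony and had been reared on a larval diet with 0.21 g of iron phosphate per litre, and all ESM pupae came from the CT colony and a diet with 0.13 g. Strain, colony and diet cannot be told apart in these samples, and the draft ASM genome served as reference for both strains. The libraries held 2638192 to 10786468 reads on genes, with a median of 5175526, and the smallest of all was that of ESM pupa 3 of day 3.

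In a moth pupa the larval organs are broken down and the adult organs, among them wings, legs, antennae and flight muscle, are built from imaginal discs and other precursor cells. Pulses of the moulting hormone ecdysone early in pupal life switch groups of genes on and off in sequence, and the new adult cuticle, made of chitin and proteins, is laid down later under the pupal case. Genes that are active for a short window early in pupal life can therefore show up as a peak on a single sampling day. In RNA from a whole pupa, fewer cells of a type and less RNA per cell cannot be told apart.

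Around day 3, where the choice puts their highest mean, the genes stood at intermediate levels on days 1 and 5 and at low levels late in pupal life. Levels are given as normalised counts, the read count of a gene divided by the size factor of its library. Over the 150 genes the median level started at 56.2 on day 1, reached 182 on day 3, stood at 74.2 on day 5 and ended at 15.7 (day 8) and 12.9 (day 11). The genes were thus already measurable on day 1, and most of the signal had gone by day 8. Their summed share of all reads in ASM pupae was 1.87, 2.61 and 2.49% on day 3, a mean of 2.32% ± 0.397 (SD, n = 3). The ESM pupae of day 3 had 2.71, 2.71 and 3.10%, a mean of 2.84% ± 0.227 (SD, n = 3). No pupa of days 8 and 11 was above 0.177%.

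**Figure D1:**
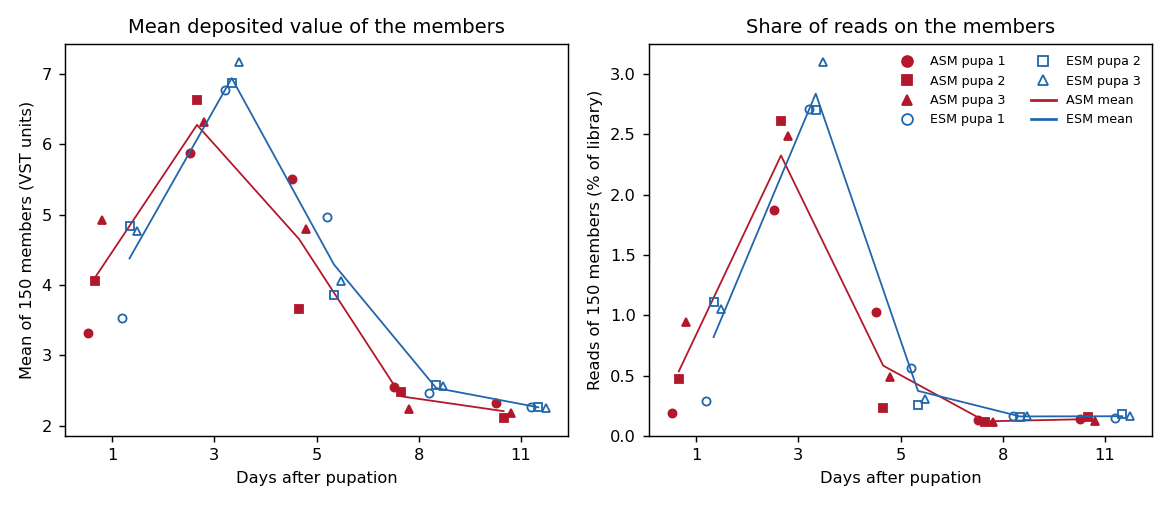
Mean deposited value of the 150 genes (left, VST units) and their share of all reads (right, percent) against days after pupation. Each point is 1 pupa (ASM filled red, ESM open blue, 3 per strain and day) and lines join the group means. The 6 pupae of day 3 lie at 1.87 to 3.10% of reads and those of days 8 and 11 at 0.112 to 0.177%.

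For 70 genes the second highest mean was that of day 5 and for 66 that of day 1, while day 8 came second for 9 genes and day 11 for 5. The lowest day was day 11 for 83 genes and day 8 for 49. Of the normalised reads of a gene over all 30 libraries, day 3 held between 21.2 and 92.0%, with a median of 50.9%, where equal days would give 20%. For 7 of the 150 genes day 3 held more than 80%. The mean normalised count of day 3 was 0.830 to 14.5 times that of the second highest day. At least 1 gene was thus not highest on day 3 by this measure, since the choice used variance-stabilised values.

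The highest mean fell on day 3 in both strains for 126 of the 150 genes. In ASM pupae taken alone it fell on day 3 for 131 and on day 5 for 14, and in ESM pupae alone it fell on day 3 for 145 and on day 5 for 2. Among the genes chosen, the ESM peak was the more separate one. All 3 ESM pupae of day 3 stood above the 12 other ESM pupae for 96 genes, and all 3 ASM pupae of day 3 stood above the 12 other ASM pupae for 51. For 22 genes every day 3 pupa stood above every pupa of the other days.

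**Figure D2:**
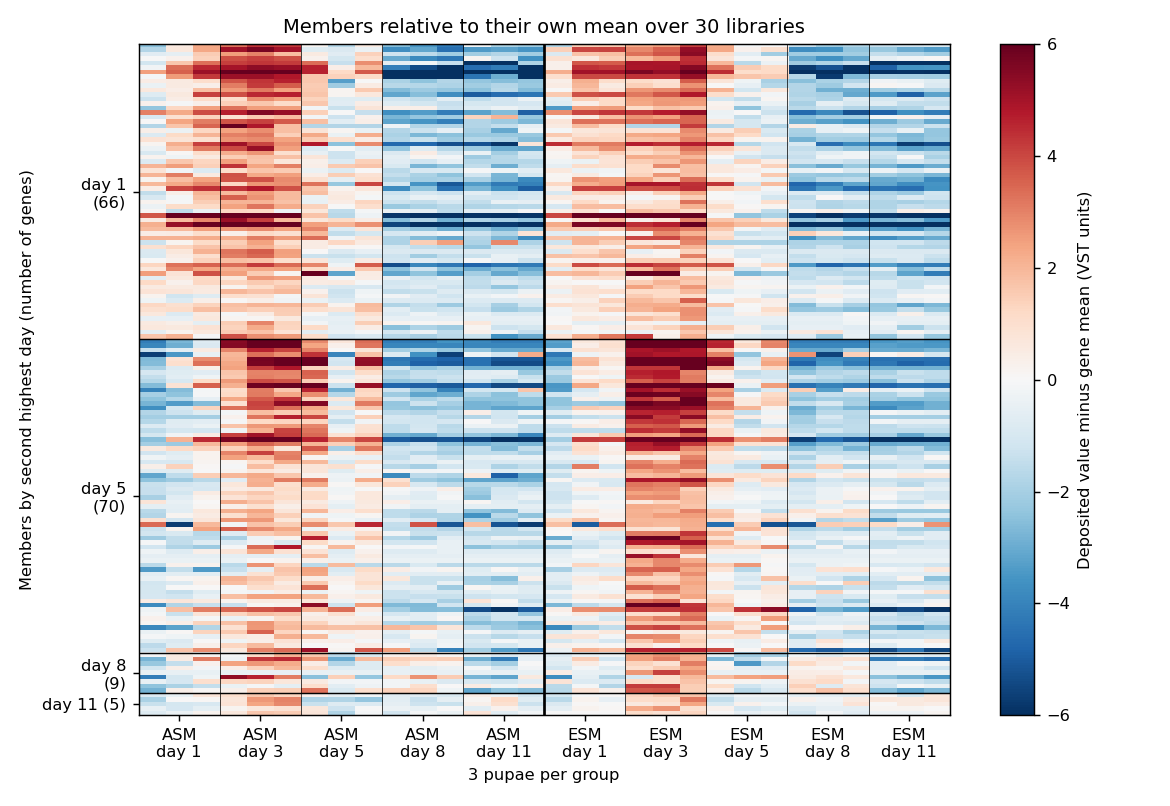
Deposited value minus the mean of the gene over 30 libraries (colour, VST units) for the 150 genes (lines) in the 30 pupae (columns, 3 per strain and day, ASM left of the thick line and ESM right of it). Genes are grouped by their second highest day, with 66 under day 1, 70 under day 5, 9 under day 8 and 5 under day 11. The day 1 and day 5 columns differ between pupae of a group, with a median SD of 0.736 to 0.887 VST units.

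The 2 genes with the largest excess of day 3 were Lda.38533 and Lda.38534, which carry consecutive numbers and no description. The normalised count of Lda.38533 was 491, 1200.0 and 1278 in the ASM pupae of day 3 and 944, 946 and 1658 in the ESM pupae of that day. On day 1 it was 0, 5.70 and 25.7 in ASM and 3.12, 56.8 and 64.9 in ESM, and on day 5 it was 162, 59.7 and 196 in ASM and 315, 58.3 and 164 in ESM. No pupa of days 8 and 11 was above 2.66, so this gene was nearly silent from day 8 on in both strains, while on day 1 a pair of ESM pupae were level with some pupae of day 5. Lda.38534 had 454, 926 and 965 in ASM and 802, 762 and 1469 in ESM on day 3, and no read in any of the 6 pupae of day 8. The strains overlapped on day 3 for both genes. The difference of ASM minus ESM for Lda.38533 was -0.42 VST units (standard error 0.93, limma adjusted p = 0.854), and it was 0.16, with the other sign, without ASM pupa 1 of day 3.

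Lda.4237 and Lda.525, also without a description, had the same narrow course at a lower level. Lda.4237 was at 104, 208 and 168 in ASM and 236, 251 and 226 in ESM on day 3, and at or below 4.66 in every pupa of days 8 and 11. Lda.525 was at 73.0, 159 and 208 in ASM and 168, 167 and 396 in ESM on day 3, and had no read in the 6 pupae of day 11. Lda.10349 was more abundant and never silent. It was at 1694, 3748 and 3492 in ASM and 923, 1051 and 3195 in ESM on day 3, and between 46.0 and 293 on days 8 and 11. The strains overlapped on day 3 for Lda.525 and Lda.10349, and for Lda.4237 every ESM pupa was above every ASM pupa while the difference of -1.07 VST units (standard error 0.63) did not pass the test (limma adjusted p = 0.327).

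The other leading genes, Lda.747, Lda.37174, Lda.37173, Lda.40911 and Lda.8278, peaked on day 3 in ESM pupae. In ASM pupae their highest count was that of pupa 1 of day 5, with the other pupae of that day lower. The rule applied to ASM libraries alone still took each of these genes except Lda.37174. Lda.37174 was at 3246, 3092 and 2609.6 in ESM pupae of day 3 and at 785, 39.5 and 174 in those of day 5. In ASM it was at 178, 951 and 1209 on day 3 and at 1533, 39.8 and 745 on day 5. The ASM pupae of both days thus covered the same wide range, and the 3 ESM pupae of day 3 lay above all of them. Lda.747 was at 4666, 3874 and 3904 in ESM and 633, 1308 and 967 in ASM on day 3, and at 2603 in 1 ASM pupa of day 5. The strain differences of these 5 genes on day 3, from -2.83 to -1.60 VST units, did not pass the test (limma adjusted p from 0.161 to 0.546).

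**Figure D3:**
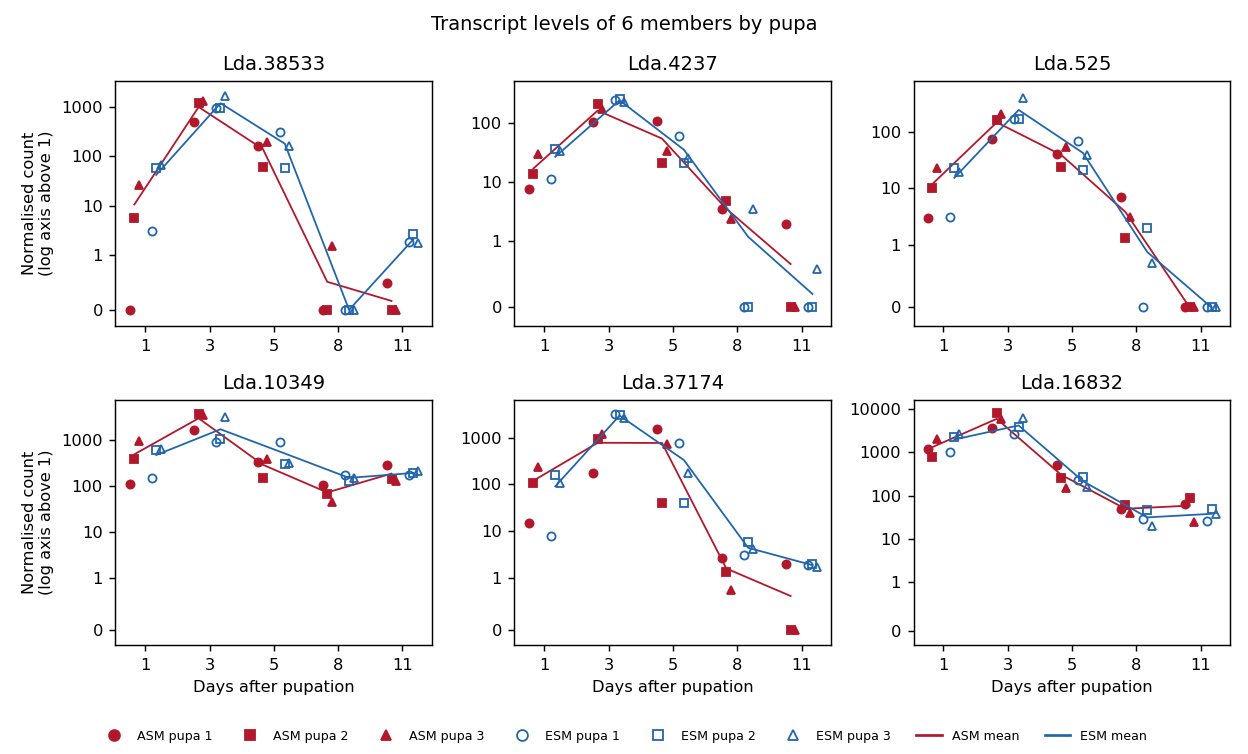
Normalised count (log axis above 1) of 6 of the 150 genes against days after pupation. Points are single pupae (ASM filled red, ESM open blue), lines join the means of 3 pupae, and the last panel is the obstructor-E gene. Lda.38533, Lda.4237 and Lda.525 are at 7.00 or less in every pupa of days 8 and 11, while for Lda.37174 the ASM means of days 3 and 5 are 779 and 772 and the ESM means are 2983 and 333.

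Only 4 of the 150 genes have a description in the tables of annotated genes used here, which cover 617 genes of the data some of which were picked by their response in these samples. One is described as protein obstructor-E, a chitin-binding protein known from the larval cuticle of Drosophila, and was the most abundant of the 4. Its normalised count was 3703, 8161 and 5994 in ASM and 2593, 3794 and 6172 in ESM on day 3, and 764 to 2697 in the 6 pupae of day 1. It was down at 151 to 502 on day 5 and 20.4 to 87.4 on days 8 and 11. The strains overlapped on each of the 5 days and no strain difference passed the test, with 0.41 VST units (standard error 0.62, limma adjusted p = 0.761) on day 3.

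Of the other described genes, Lda.38715 is an aryl hydrocarbon receptor, a transcription factor whose Drosophila counterpart helps to shape antennae and legs. It was at 64.1, 110.3 and 111 in ASM and 284, 291 and 112 in ESM on day 3. It was not silent later, with 46.7 to 127 on day 8, and only on day 11 was it at or below 12.2 in every pupa. The lowest ESM pupa of day 3 was level with the highest ASM pupa, and the difference of -1.93 VST units (standard error 0.89) did not pass the test (limma adjusted p = 0.190).

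Lda.34800, described as transmembrane protein 132B, was at 125, 181 and 128 in ASM and 124, 120.5 and 133 in ESM on day 3, against 53.1 to 117 on days 1 and 5. On day 11 its ASM pupae had 10.7, 12.9 and 9.29 and its ESM pupae 27.6, 26.0 and 21.9, which did not overlap. The difference of -1.24 VST units (standard error 0.35, limma adjusted p = 0.0391) made it the only gene of the group called between the strains on day 11. That call was lost with library medians set equal.

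Lda.25670 is described as a facilitated trehalose transporter Tret1, a description that several gene models share. Trehalose is the main blood sugar of insects. The gene was at 270.4, 267 and 85.5 in ESM pupae of day 3 and at 30.6, 37.6 and 27.3 in ASM pupae of day 3. Outside day 3 both strains lay between 7.41 and 83.7, so its peak was an ESM peak. The ESM mean of day 3 was 6.52 times the ASM mean, a difference of -3.64 VST units (standard error 0.68).

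In VST units the difference between pupae of the same group was large on days 1 and 5, that is, on both sides of the peak, and small on days 8 and 11. The mean deposited value of the 150 genes was 3.31, 4.06 and 4.93 VST units in the ASM pupae of day 1 and 3.53, 4.84 and 4.76 in the ESM pupae of day 1. On day 5 it was 5.50, 3.66 and 4.79 in ASM and 4.97, 3.85 and 4.06 in ESM. ASM pupa 1 and ESM pupa 1 were the low ones on day 1, and the same numbers, which are other animals, were the high ones on day 5. The genes moved together in these pupae. Leaving out ties, ASM pupa 1 of day 1 was the lowest of its trio for 98 of 141 genes (69.5%, against 34.1% of all genes tested) and ESM pupa 1 of day 1 for 113 of 143 (79.0%, against 37.9%). On day 5, ASM pupa 1 was the highest for 97 of 146 (66.4%, against 34.9%) and ESM pupa 1 for 104 of 139 (74.8%, against 36.4%).

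The median SD within a group of 3 pupae was 0.819 VST units for these genes in ASM on day 1 and 0.887 in ASM on day 5, against 0.408 and 0.385 for all genes tested. In ESM it was 0.736 on day 1 and 0.831 on day 5, against 0.357 and 0.443. On day 3 it was 0.569 in ASM and 0.564 in ESM, against 0.338 and 0.359. On day 11 it was 0.434 in ASM and 0.328 in ESM, against 0.428 and 0.276. In VST units the spread was above that of all genes on the peak day too, and widest on the days next to it. A doubling adds 0.849 VST units around a normalised count of 10 and 1.70 around 200. The median count of these genes was 56.2, 182 and 74.2 on days 1, 3 and 5, and 15.7 and 12.9 on days 8 and 11. SDs at such different levels are not alike in fold, and the part of the scale in these contrasts was not tested. The number of hours since pupation of each animal is not given in the sources used here, and its part in this spread was not tested.

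On day 3 itself levels were mostly higher in ESM. Differences were fitted on the deposited values, which are counts on the variance-stabilised scale of DESeq2. Its unit is called a VST unit here. A doubling around a normalised count of 100 adds 1.51 VST units, against 0.849 around 10, 1.70 around 200, 1.24 around 1000 and 0.886 around 3000. Fold differences are therefore given from the counts. All 150 genes were among the 19652 genes tested, and a gene was called at a Benjamini-Hochberg adjusted p under 0.05 (limma). On day 3, 36 of the 150 genes were called (24.0%), where 8.57% of all genes tested were called. ESM was higher in 29 of them (4.61% of all genes were called in that direction) and ASM was higher in 7 (3.96%). Nothing is read from the excess over the share of all genes, because the choice favours such genes. When the rule was applied to each strain alone, 28 of the 29 genes with ESM higher were not in the ASM list, and all 7 with ASM higher were not in the ESM list. Over the 150 genes the median of ASM minus ESM was -0.47 VST units, with the middle 50% between -1.77 and 0.42, and over all genes tested it was 0.00.

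Every ASM pupa of day 3 was below every ESM pupa of day 3 for 59 of the 150 genes, where this held for 13.4% of all genes tested. The opposite order held for 13 genes, against 13.6% of all genes. For the other 78 genes the strains overlapped on day 3.

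The count of called genes rested on single pupae of day 3. Without ASM pupa 1 it was 17, without ESM pupa 1 it was 21 and without ESM pupa 2 it was 23, all among the 36. Among all genes tested the calls went from 1684 to 862, 701 and 887 without these pupae, and to 916 without ASM pupa 2. In each of the 30 fits with 1 library left out, 17 of the 36 genes were called. A fit of the 6 libraries of day 3 alone called 6 genes, with 191 called among all genes.

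**Figure D4:**
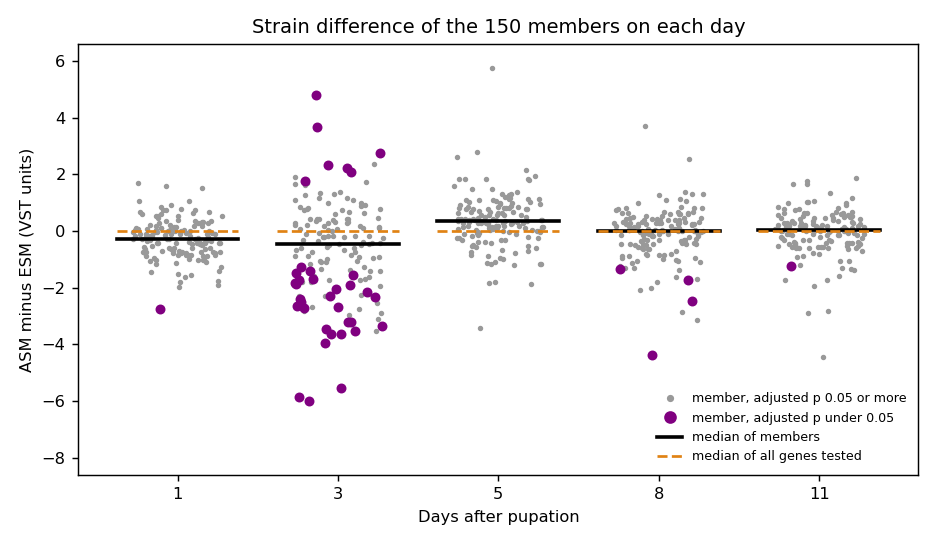
Difference of ASM minus ESM (VST units) for each of the 150 genes on each day after pupation. Purple points passed the test (limma adjusted p under 0.05), grey points did not, black lines are the medians of the 150 genes and dashed orange lines those of all genes tested. On day 3, 29 genes called lie below 0 and 7 above it, and on the other days 0 to 4 genes are called.

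The genes called with ESM higher were mostly of the kind that is second highest on day 5. Of the 70 genes with that order, 23 were called with ESM higher and 0 with ASM higher, and their median of ASM minus ESM on day 3 was -1.65 VST units. Of the 66 genes that are second highest on day 1, 3 were called with ESM higher and 6 with ASM higher, and the median was 0.25. This split uses day means over both strains and is a description of the same libraries. All 29 genes called with ESM higher had no overlap between the strains, and for 20 of them the ASM mean of day 5 was above the ESM mean of day 5. Over all 150 genes the ASM mean of day 5 was the higher one for 107, so this order was not particular to the genes called.

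Lda.42717 combined a large difference with little spread. It was at 121, 126 and 129.8 in the ESM pupae of day 3 and at 1.97, 5.13 and 1.60 in the ASM pupae of day 3, from 10 reads in all. In the other pupae it ranged from 0 to 29.2, and the highest of these were ESM and ASM pupae of day 5. The difference on day 3 was -5.55 VST units (standard error 0.42), with an ESM mean 43.2 times the ASM mean. The gene entered the list through its ESM pupae, since in ASM the mean of day 3, 2.90, was below that of day 5, 11.6.

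Lda.34965 and Lda.34966, with consecutive numbers and no description, had the largest differences in VST units, though not by fold. Lda.34965 was at 2848, 3429 and 931 in ESM and at 71.0, 140.2 and 149 in ASM on day 3. On day 5 the order between the strains was less clear, with 1789, 76.6 and 378 in ASM and 301, 121 and 161 in ESM. On day 3 the ESM mean was 2402 and the ASM mean 120.1 (-5.86 VST units, standard error 1.00). Lda.34966 was at 373, 448 and 136 in ESM and at 3.94, 17.1 and 24.1 in ASM on day 3, and again 1 ASM pupa of day 5 was high, at 217. Its difference was -5.99 VST units (standard error 0.92), and its call was lost in the fit of the day 3 libraries alone.

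Lda.7937 had no read in any ASM pupa of day 3 and 92.7, 60.2 and 4.75 normalised counts in the ESM pupae. With 3 reads allowed for each ASM library at 0, the ESM mean was at least 19.9-fold higher (-3.94 VST units, standard error 0.65). Its call was lost in the fit of the day 3 libraries alone, as was that of Lda.25670. The gene was not absent from ASM pupae, since 2 of those of day 5 had 13.2 and 3.92. Lda.27706, named here after its values were seen, had no read in any of the 15 ASM libraries and was the only gene of the 150 without reads in a strain. In ESM it was at 22.2, 50.8 and 23.7 on day 3, at least 12.2-fold above the limit of 3 reads per ASM library, and at or below 3.12 in every other ESM pupa. Both genes could enter the list only through ESM pupae.

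Of the 7 genes called with ASM higher, 5 kept the call in fewer than all 30 fits with 1 library left out. Lda.36560 was at 39.4, 49.6 and 25.7 in ASM and at 0.966, 3.44 and 12.7 in ESM on day 3, and had no read on days 8 and 11. The ASM mean was 6.72 times the ESM mean, with a difference of 2.76 VST units (standard error 0.57). Its call was kept in all of these fits, as was that of Lda.40620 (2.09 VST units). The fit of the day 3 libraries alone did not call Lda.36560.

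Lda.6146 was at 1079.8, 737 and 352 in ASM and at 57.9, 151 and 215 in ESM on day 3, and on day 5 the ESM pupae were the higher ones, at 211, 262 and 273 against 24.3, 176 and 27.4. The day 3 difference was 3.68 VST units (standard error 1.07) and that of day 5 was -3.40 (limma adjusted p = 0.0982). Lda.29968 was at 680.4, 135 and 28.9 in ASM and at 0, 0 and 103 in ESM on day 3, so its groups overlapped although it was called (4.81 VST units, standard error 1.34). Lda.37164 (2.34 VST units) had ASM values of 466, 296 and 122 and ESM values of 56.0, 74.0 and 182 and also overlapped. Lda.13419 did not overlap, with 68.0, 41.9 and 26.5 in ASM and 5.79, 7.75 and 20.6 in ESM (2.21 VST units, standard error 0.54).

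The calls of Lda.6146, Lda.29968, Lda.37164 and Lda.13419 were each lost without ASM pupa 1, ESM pupa 1 or ESM pupa 2 of day 3, and those of the first 3 also without ASM pupa 2. All 4 calls were lost in the fit of the day 3 libraries alone, and those of Lda.6146, Lda.37164 and Lda.13419 on the log2 scale with a pseudocount of 1. Within day 3, ASM pupa 3 was the lowest of its trio for all 7 genes called with ASM higher, and ASM pupa 1 was the lowest for 22 of the 27 genes without ties called with ESM higher. Both sets of genes therefore ordered the same ASM pupae differently.

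**Figure D5:**
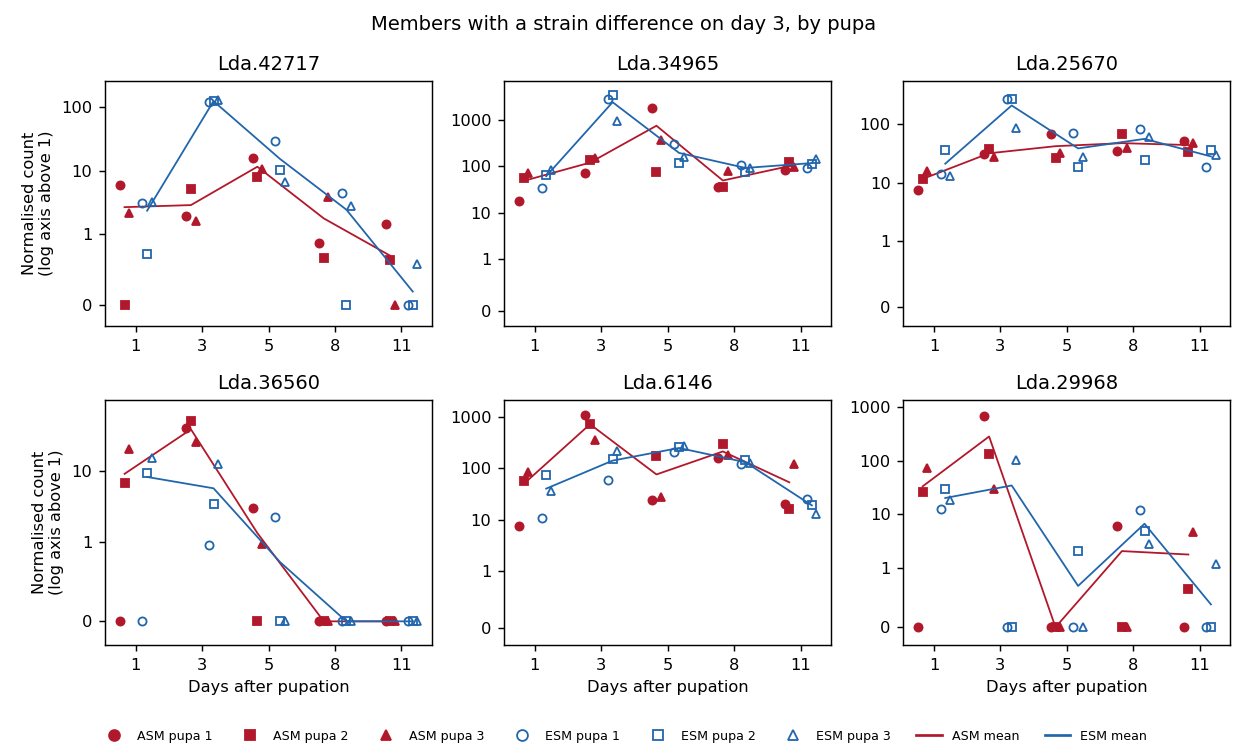
Normalised count (log axis above 1) against days after pupation for 3 genes higher in ESM on day 3 (top) and 3 genes higher in ASM on day 3 (bottom). Points are single pupae (ASM filled red, ESM open blue) and lines join the means of 3 pupae. For Lda.42717 the ESM pupae of day 3 lie at 121 to 129.8 and the ASM pupae at 1.60 to 5.13, and for Lda.29968 the groups overlap.

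The height of the day 3 peak was compared between the strains with the day 3 value minus the mean of the other 4 days, ASM minus ESM. This difference was called in 21 of the 150 genes (14.0%), where 2.9% of all genes tested were called, and all 21 were also called on day 3. This contrast is built from the day means that chose the genes, so nothing is read from that excess either. The peak was larger in ESM for 19 of them (1.92% of all genes were called in that direction) and larger in ASM for 2 (0.972%). The largest differences with ESM higher were those of Lda.34966 at -6.16 (standard error 1.02), Lda.34965 at -5.69 (standard error 1.12) and Lda.42717 at -5.50 (standard error 0.47). Lda.7937 had -4.11 VST units (standard error 0.73) and the trehalose transporter Lda.25670 had -3.67 (standard error 0.77), and the call of the latter was lost without ESM pupa 1 or 2 of day 3.

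The 2 genes with the larger ASM peak were Lda.36560 at 2.71 VST units (standard error 0.64) and Lda.14958 at 2.45 (standard error 0.60). On day 3 Lda.14958 was between 91.4 and 144 in ASM and at 30.9, 27.5 and 120.3 in ESM, which overlapped (1.77 VST units), and at 13.3, 31.9 and 44.0 in ASM and 65.6, 62.6 and 73.6 in ESM on day 1. Both peak calls, and the day 3 call of Lda.14958, were lost without any one of ASM pupae 1 and 2 or ESM pupae 1 and 2 of day 3. The number of genes called was 10 without ASM pupa 1, 12 without ESM pupa 1 or 2, and 34 without ESM pupa 3 of day 3, and it was 33 without ASM pupa 2 of day 5. The day 3 call of Lda.14958 was also lost on the log2 scale with a pseudocount of 1 and in the fit of the day 3 libraries alone, and the peak call of Lda.36560 on the log2 scale and with voom. A test of any change of the strain difference over the 5 days, which includes day 3, called 13 of the 150 genes (8.67%), where 3.65% of all genes tested were called. That count was 7 without ASM pupa 1, ESM pupa 1 or ESM pupa 2 of day 3, and 20 to 24 without ESM pupa 3 of day 3, ASM pupa 3 of day 1 or ASM pupa 2 of day 5.

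Away from day 3 few of these genes were called between the strains. Their spread in VST units was wider than that of all genes on days 1 and 5, and their counts were low on days 8 and 11. The fit pools the spread of a gene over all groups. Tests of days 8 and 11 thus also carry the wider spread of days 1 and 5, and tests of days 1 and 5 the narrower late spread. Few calls therefore do not show equal levels. A single gene of the 150 was called on day 1, where 3.67% of all genes tested were called, and a single one on day 11, where 4.9% were. Day 8 had 4 calls, against 6.36% of all genes. These 6 calls all had ESM higher, the direction of 2.23, 2.37 and 2.82% of all genes on days 1, 11 and 8. On day 5 limma called 0 (2.48% of all genes), 21 had an unadjusted p under 0.05 (14.5% of all genes), and voom and the log2 scale with a pseudocount of 1 called 0 as well. Without ASM pupa 2 of day 5, which was the lowest of its trio for 114 of 146 genes, 11 were called on day 5. The call of day 1 was lost in 23 of the 30 fits with 1 library left out and day 8 had 2 calls without ASM pupa 2 or ESM pupa 1 of day 8. The day 11 count was 0 to 5 over these fits, with 5 without ASM pupa 2 of day 11 and 0 without ASM pupa 3, ESM pupa 1 or ESM pupa 3 of that day. The median difference of the 150 genes on day 5 was 0.35 VST units (all genes 0.02) and on day 1 it was -0.27 (all genes 0.00). The sign of the median was thus opposite on days 3 and 5, and 70 of the 150 genes were lower in ASM on day 3 and higher in ASM on day 5. Each day taken singly, 102 genes were lower in ASM on day 1, 92 were lower in ASM on day 3 and 107 were higher in ASM on day 5. The genes moved together within a pupa, so these counts of signs are not 150 separate observations and were not tested.

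The 4 genes called on day 8 were all higher in ESM. Lda.21616, the most abundant of the 150 genes on day 3 at 10909.7, 10913 and 7546 in ASM and 4804, 4872 and 12097 in ESM, was down at 7.88, 2.00 and 3.83 in ASM and 173, 22.4 and 117 in ESM on day 8. Its difference on day 8 was -4.37 VST units (standard error 0.99, limma adjusted p = 0.00763), while that on day 3 was 0.40 (limma adjusted p = 0.874). Lda.37527 (-2.45, limma adjusted p = 0.00221), Lda.3710 (-1.71, limma adjusted p = 0.0303) and Lda.41740 (-1.33, limma adjusted p = 0.0372) were the others. These genes and Lda.14955, the gene called on day 1 (-2.75, limma adjusted p = 0.0498), are named after their values were seen. Averaged over the 5 days, 20 genes were called (13.3%), where 23.4% of all genes tested were called. ESM was higher in 16 of the 20 (10.9% of all genes) and ASM in 4 (12.4%).

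Many of the 150 genes carry numbers close to each other. Of the 150, 28 form 14 pairs of consecutive numbers, and over the 30 libraries the deposited values of these pairs had Pearson correlations from 0.714 to 0.999, with a median of 0.969. These correlations are across pupae of all days, which share the course that chose the genes. The closest pairs in level and course were Lda.37173 with Lda.37174 and Lda.38533 with Lda.38534. Whether such pairs are separate genes or parts of 1 transcript unit cannot be told apart from the counts, and positions on the genome were not analysed here.

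In 5 groups of 3 or more genes, 18 genes in all, the steps between numbers were at most 30. In the group from Lda.17305 to Lda.17351, 4 of 5 genes were called with ESM higher on day 3, the most of any group. In the group of Lda.7937 it was 3 of 4 and in that of Lda.34800 1 of 3. It was 0 of 3 in the group of Lda.37164, where 1 was called with ASM higher, and 0 of 3 in the remaining group. Among all 150 genes 29 were called with ESM higher, and 4.61% of all genes tested. Lda.17314 was at 964, 941 and 771 in ESM and 116, 256 and 184 in ASM on day 3, Lda.17316 at 427, 449 and 345 against 53.3, 135 and 120.3, and Lda.17305 at 219, 234 and 161 against 27.6, 55.6 and 59.3. Their ESM means of day 3 were 4.80, 3.96 and 4.31 times the ASM means. Of the 36 genes called on day 3, Lda.17314 was the only one in the lists of both strains taken alone. Lda.17332 was low, at 16.4, 24.1 and 15.8 in ESM and 0, 0.855 and 1.60 in ASM, and Lda.17351 went the other way without passing the test. The group from Lda.17305 to Lda.17351 was picked, and its genes named, after their values were seen.

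Lists of genes with a described function, drawn in part from genes the study picked on these samples, held few day 3 peaks. Of 11 cuticle and chitin genes, the obstructor-E gene was the only one with its highest mean on day 3. Day 8 was the highest day of 6, day 5 of 3 and day 1 of 1, and none was called between the strains on day 3. None of 9 small lipid carriers and of 9 hormone response and storage genes had its highest mean on day 3, and of 10 immune recognition and Toll pathway genes 1 had, which is not among the 150. Over all 19654 genes, 3551 (18.1%) had their highest mean on day 3. The strain calls on day 3 were 1 with ASM higher and 3 with ESM higher among the lipid carriers, 3 and 1 among the immune genes and 2 and 1 among the hormone response and storage genes, where 3.96% of all genes were called with ASM higher and 4.61% with ESM higher.

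The limit between the 150 genes and the rest is not a step in the data. The last genes taken were Lda.27662 and Lda.25314, with an excess of 0.993 and 0.990 VST units, and the first left out were Lda.15159 and Lda.31080, with 0.985 and 0.977. The largest excess was 4.34 and the median 1.41. Lda.27662 was an ESM peak at 1391, 1355 and 1374, while its ASM pupae had 196, 579 and 694 on day 3 and 1936, 164 and 820.3 on day 5. The same rule applied to each strain alone took 82 of the 150 genes in ASM and 77 in ESM, and only 28 genes were in both of these lists.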

How the data were processed

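RNA of 30 whole female pupae was sequenced from stranded polyadenylated libraries on an Ion Proton instrument. Per the study's methods, reads were checked with FastQC 0.11.5 and trimmed with Trimmomatic 0.36, iflavirus reads were removed, and the rest was aligned with HISAT2 to a draft ASM genome with gene models from StringTie. Counts per gene came from featureCounts 2.0.0. The values deposited by the authors are variance-stabilised counts from DESeq2 1.28.1 under R 4.0.2, which approach a log2 scale at high counts.

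Read counts were recovered by inverting this transformation (at least 99.9339% of values per library lay within 0.05 of a whole number) and give the normalised counts and depths. The deposited values were fitted with limma 3.58.1 under R 4.3.3, with 10 strain and day means and a variance trend, on the 19652 genes above the lowest value in 3 or more libraries. Benjamini-Hochberg adjustment covered all of them, and the fit was tested on simulated data. The fit gives each gene a single variance, pooled over the 10 groups, so the standard error of a strain difference is the same on every day. A p-value for a given day therefore does not measure the spread of that day's pupae alone. Nothing in the labels says whether the 3 pupae of a group share a parent, so p-values rest on the spread between the pupae within groups. A reference for sequences or positions of the gene models was not used here.

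The 150 genes and the gene lists were chosen with earlier results of these data known. Genes named are those with a description, the 10 of largest day 3 excess, those at the limit of the list and the 5 largest strain differences called each way on day 3 and for the peak, with others said to be named after their values were seen. Alternatives were other scales, filters, a replicate block, the day 3 libraries alone and fits with 1 library left out.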

Additional observations from a re-analysis of the deposited data

Results flagged for a closer look

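In some of the 150 genes the change of level between days was called as different between the strains. The day 3 level relative to the other 4 days differed between ASM and ESM in 21 of the 150 genes, and a change of the strain difference over the 5 days passed the test in 13 (limma, Benjamini-Hochberg adjusted over all genes). Of all genes tested, 2.9% and 3.65% were called. Without ASM pupa 1 of day 3 the counts were 10 and 7. The genes were chosen by their day 3 peak and most of those called entered through 1 strain, so these counts are a description. Among the named genes the peak was larger in ESM for Lda.34966 (-6.16 VST units), Lda.34965 (-5.69), Lda.42717 (-5.50), Lda.7937 (-4.11) and the trehalose transporter Lda.25670 (-3.67). It was larger in ASM for Lda.36560 (2.71) and Lda.14958 (2.45).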

How the results depend on the processing

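On day 3, 36 genes were called, and 19 with a filter on genes above the lowest value in all 30 libraries, which tests fewer genes, and 6 with the day 3 libraries alone. Among all genes tested that last fit called 191. For the peak difference (21) the counts were 13 on the log2(normalised count + 1) scale and 10 with the filter, and voom called 360 among all genes against 569. The filter left 11 of the 20 calls for the mean over days. The interaction (13) had 4 with voom, 7 on the log2 scale and 5 with the filter. The call of day 1 was lost (0) with equal library medians, voom, the log2 scale and the filter. Day 8 (4) had 8 on the log2 scale, and day 11 (1) had 0 with equal medians, 3 with voom and 3 on the log2 scale. Of the 150 genes, 82 were taken from ASM libraries alone and 77 from ESM libraries alone. The cause of these changes was not tested beyond the smaller number of genes under the filter.

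With 1 library left out, the counts ranged from 17 to 42 (day 3), 10 to 34 (peak), 17 to 26 (mean), 7 to 24 (interaction), 0 to 5 (day 1), 0 to 11 (day 5), 2 to 6 (day 8) and 0 to 5 (day 11). Among all genes they ranged from 701 to 2197 (day 3) and from 197 to 1077 (peak), and 126 to 150 of the genes were taken again. Differences that changed sign were uncalled, with -0.74 to 0.16 on day 3 and -0.044 to 0.85 for the peak in Lda.38533, and -0.19 to 0.31 for the peak of the obstructor-E gene. For the named genes, 15 values lost and 1 gained the call under the other alternatives, and 272 kept it or stayed uncalled. Of the 15, 9 were lost with the day 3 libraries alone, 5 on the log2 scale and 1 with voom.

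The labels give the pupae of both strains the numbers 1 to 3. A replicate block called the same 36 genes on day 3 and 2 on day 11. Whether the numbers pair pupae of both strains cannot be told from the correlations. Those of same-numbered pupae ran from -0.339 to 0.578, and 7 of 15 ASM pupae correlated best with the ESM pupa of their own number. On day 1 the same-numbered correlations were 0.578, 0.244 and 0.378, and on day 3 they ran from -0.339 to -0.0871.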
